A study of Mus musculus with 10 samples.

Results

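The genes described here are 42 genes of the monocyte and macrophage programme, listed by function: receptors and other surface proteins, signalling adaptors, lysosomal and antimicrobial proteins, secreted proteins, and the factors Irf8 and Aif1. They were chosen by name and not by their values in any contrast, and 41 of the 42 were measured through a probe set that names the gene alone, out of 18193 genes measured in all. Spp1, the secreted phosphoprotein osteopontin, had no such probe set. Where a gene had several probe sets, the one brightest on average over the 10 arrays stands for it.

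The study measured messenger RNA in cultured mouse hematopoietic stem and progenitor cells in which a retrovirus expressed EGFP and a form of the transcription factor HOXB4. HOXB4-ER is a fusion that enters the nucleus when 4-hydroxytamoxifen (TMX) is present, and HOXB4const is the unmodified, constitutively active protein. All groups shared the same history: after transduction the cells grew for 14 days without serum, in the presence of cytokines and of TMX at 10 nM, GFP-positive LSK cells (lineage negative, Sca1+, ckit+) were sorted and then kept for 12 h more with TMX, and the populations were divided. The 5 groups were HOXB4-ER 1 h after TMX withdrawal, HOXB4-ER 4 h after withdrawal, HOXB4-ER kept with TMX for 1 h, HOXB4const 1 h after withdrawal and HOXB4const kept with TMX for 1 h. Each had 2 arrays, which the labels call biological replicates 1 and 2, so replicate number 1 and replicate number 2 have 5 arrays each. The labels give no age, sex or strain of the donor mice, no untransduced cells are among the groups, and the 4 h time point has no array with TMX, so time and withdrawal change together there. Since each construct's sorted population was divided between treatments, arrays of 1 construct and 1 replicate number may come from a single culture, and the p-values below cover the spread between arrays, not between independent cultures.

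Monocytes arise in the marrow from committed progenitors under the factors PU.1 and Irf8, leave it by the chemokine receptor Ccr2, and become macrophages or related cells in tissues. Their growth and survival depend on the receptor Csf1r, and their work depends on pattern and Fc receptors that bind particles, on adaptors that carry the receptors' signal, and on lysosomal proteases, lysozyme and the phagocyte oxidase that destroy what was taken up. LSK cells are upstream of this lineage and are sorted against mature lineage markers, so that these genes report how far cells in a culture have moved towards it, or which other cells it holds.

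Values are log2 signals scaled to the same mean on every array, and a difference of 1 is a doubling. Levels of different genes are not compared, because probe sets differ in brightness. The median level of all probe sets was 4.05, and the median spread left after group and replicate number were fitted was 1.35 in the dimmest of 4 equal classes of probe sets and 0.27 in the brightest, so values under about 4 carry little information. Of the 41 genes, 33 averaged at or above the median level and 8 below it. Kit, whose protein was part of the sort, read 8.72 to 10.94 and Cd34, a progenitor surface protein, 10.78 to 11.86 over the 10 arrays, while Sca1 (Ly6a) has no probe set of its own name here. The deviations of same-numbered arrays ran together in all 10 pairs of groups (correlations 0.21 to 0.53 over the 22519 brighter probe sets), so the number marks something that the arrays share.

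The largest contrast among these genes was between the replicate numbers, not between treatments. With each array set against the other array of its group, 40 of the 41 genes were higher in replicate 1, by a median of 2.42 on the log2 scale, where 52.2% of all genes were higher and the median over genes was 0.03. On 26 of the 41 genes every replicate 1 array read above every replicate 2 array, against 3.11% of all genes, and on 0 of the 41 did every replicate 1 array read below. In the test that allows a mean for each group, 0 of the 41 genes and 0 of the 45037 probe sets (0.0%) passed an adjusted p of 0.05 in limma, although 32 of the 41 genes and 6152 probe sets had an unadjusted p under 0.05. The genes' smallest adjusted p was 0.134. That call depends on how the spread is estimated: 26 of the 33 brighter genes passed when only probe sets at or above the median level were tested, where 3.37% of probe sets were called higher in replicate 1, and 27 of the 41 passed with a spread that follows the level, where 4.13% were. Of the 26 called among brighter probe sets, Ccl6, Cx3cr1, Gpnmb, Lgals3, Mmp12 and Ms4a7 averaged below the median level in replicate 2. They were bright enough only through replicate 1. The other 20 averaged at or above that level in both numbers. Among them Itgam, Itgax, Mrc1, Clec7a, Clec4n and Cybb still had replicate 2 arrays below 4, so the counts are given as a description. Without the group means 22 of the 41 passed, against 0.742% of all probe sets, and with values below 4 set to 4, 9 passed, against 0.671%. The shift of this programme between the numbers was already visible in earlier work on these arrays, so it is described here gene by gene and not offered as independent evidence. In bulk RNA, more cells of a type and more RNA per cell cannot be told apart.

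**Figure D1:**
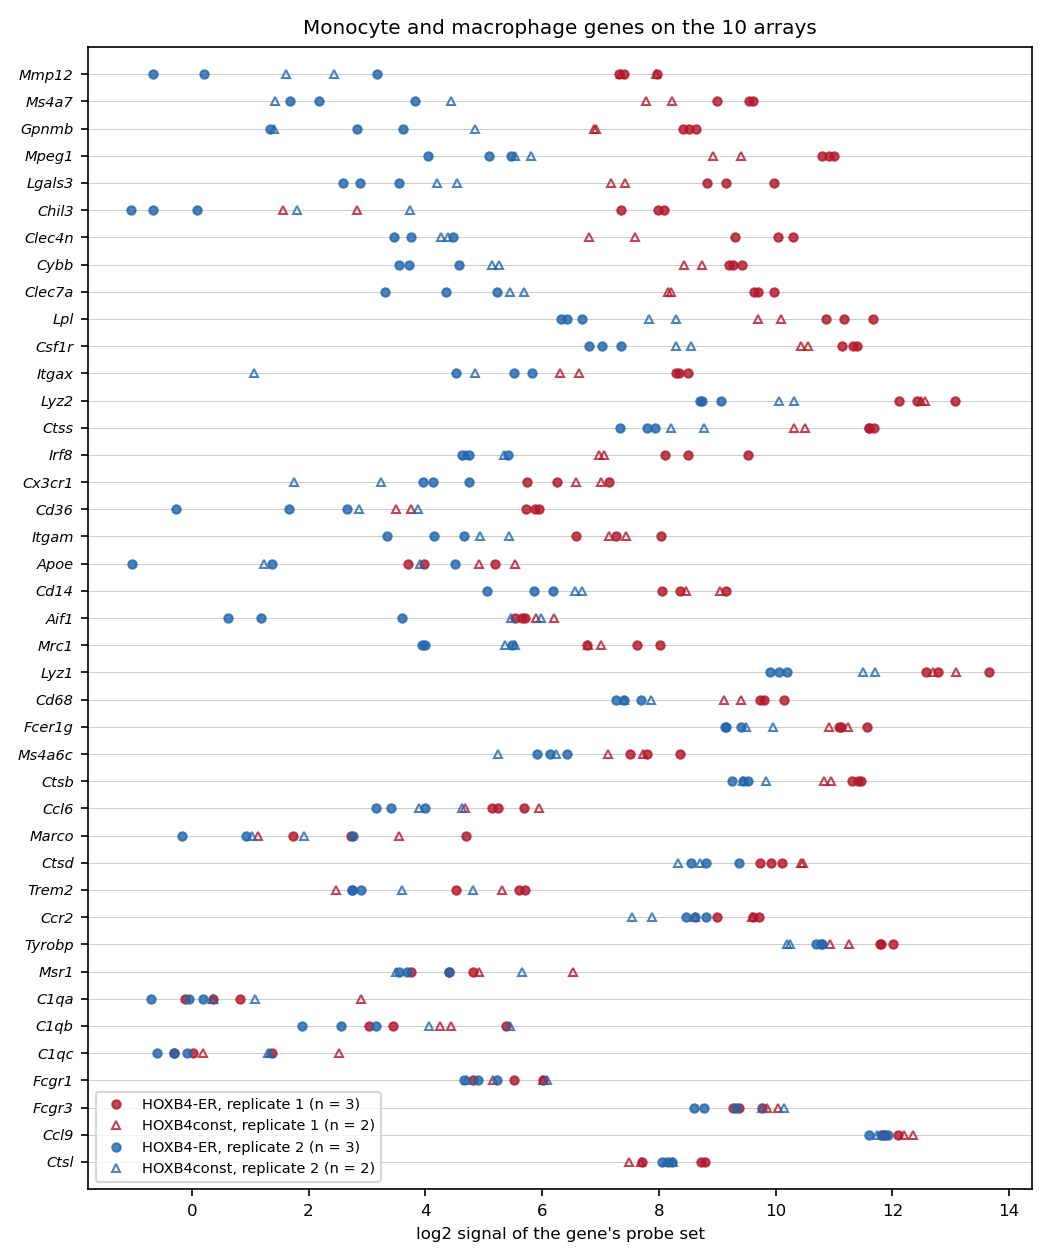
Each row is one gene, ordered by the difference between the replicate numbers, and the x axis is the log2 signal of its probe set. Filled circles are HOXB4-ER arrays (3 per number), open triangles HOXB4const arrays (2 per number), red replicate 1 and blue replicate 2; for 26 of the 41 genes the red and blue symbols do not overlap, while Ctsl, Ccl9, Fcgr3, Fcgr1 and the C1q chains mix.

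The DNA just upstream of 6 of these genes is shown because the genes shifted together or, for Chil3, split by construct; the sequences are the 250 bases before the RefSeq start on the GRCm38.p6 assembly, 5′ to 3′ on the gene's strand, and capitals mark matches to the motifs named next. Of the 42 genes, 34 have a promoter in the table used here. The ETS-type motif AGGAAGT, of the kind bound by PU.1, was found on either strand in 11 of the 34 and in 7.77% of the upstream sequences of all 27025 genes. The 11 were Mmp12, Lyz1, Lyz2, Chil3, Ms4a6c, Ccl6, Mrc1, C1qb, C1qc, Fcgr1 and Spp1. Of these, Chil3, C1qb, C1qc and Fcgr1 overlapped between the replicate numbers, and Spp1 was not measured. The composite GGAANNGAA, of the kind bound by PU.1 with an IRF protein, was in 4 of the 34 and in 7.04% of all. The 4 were Clec7a and Gpnmb, and Ccr2 and Marco, which overlapped between the numbers. The C/EBP-like TTGCNNAA was in 5 of the 34 and 9.55% of all, and the AP-1-like TGANTCA in 5 of the 34 and 6.85% of all. AGGAAGT and GGAANNGAA share the letters GGAA and could overlap, and none of the 4 motifs was searched beyond these windows. The motifs were chosen with the results known, and a match is a description of the letters only.
Mmp12, above 7 on every replicate 1 array and below 4 on every replicate 2 array, lies at chr9:7344147-7344396 (plus strand), and the neighbouring lysozyme genes Lyz2 and Lyz1 at chr10:117282273-117282522 and chr10:117292869-117293118 (both minus strand). Cd68 is at chr11:69666171-69666420, Clec7a at chr6:129472786-129473035 and Chil3 at chr3:106167565-106167814 (all minus strand).
Mmp12: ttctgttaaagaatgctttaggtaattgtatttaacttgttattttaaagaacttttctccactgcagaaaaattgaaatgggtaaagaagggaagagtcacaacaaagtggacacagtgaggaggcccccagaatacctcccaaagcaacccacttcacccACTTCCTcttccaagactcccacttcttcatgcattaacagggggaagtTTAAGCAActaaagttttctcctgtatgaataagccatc
Lyz2: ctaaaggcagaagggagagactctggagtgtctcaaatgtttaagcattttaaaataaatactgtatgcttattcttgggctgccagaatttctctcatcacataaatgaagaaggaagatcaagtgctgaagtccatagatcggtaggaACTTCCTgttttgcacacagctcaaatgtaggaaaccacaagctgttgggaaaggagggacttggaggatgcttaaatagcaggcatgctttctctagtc
Lyz1: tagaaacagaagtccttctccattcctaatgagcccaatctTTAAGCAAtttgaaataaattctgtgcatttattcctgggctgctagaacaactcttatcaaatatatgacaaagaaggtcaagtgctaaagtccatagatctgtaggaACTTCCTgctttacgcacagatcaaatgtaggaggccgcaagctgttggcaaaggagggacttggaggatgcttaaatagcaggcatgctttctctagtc
Cd68: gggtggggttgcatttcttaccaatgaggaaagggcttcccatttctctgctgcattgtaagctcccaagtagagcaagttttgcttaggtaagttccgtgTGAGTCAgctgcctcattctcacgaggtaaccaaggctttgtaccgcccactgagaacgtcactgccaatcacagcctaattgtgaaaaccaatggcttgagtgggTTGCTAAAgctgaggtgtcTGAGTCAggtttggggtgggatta
Clec7a: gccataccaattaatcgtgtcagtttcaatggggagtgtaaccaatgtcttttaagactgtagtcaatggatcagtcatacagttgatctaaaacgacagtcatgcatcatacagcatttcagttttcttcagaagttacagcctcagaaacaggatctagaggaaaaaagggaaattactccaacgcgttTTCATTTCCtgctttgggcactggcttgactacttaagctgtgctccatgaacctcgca
Chil3: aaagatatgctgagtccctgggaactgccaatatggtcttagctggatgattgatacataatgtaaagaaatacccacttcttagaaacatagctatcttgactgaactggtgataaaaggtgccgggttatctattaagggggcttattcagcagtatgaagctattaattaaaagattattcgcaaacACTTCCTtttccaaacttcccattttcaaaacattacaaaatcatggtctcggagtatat
Aligned over 248 bases, the Lyz1 and Lyz2 stretches were identical at 200 (80.6%). Mmp12, Lyz1, Lyz2 and Chil3 each hold AGGAAGT once, on the opposite strand, where it reads as its reverse complement, and Mmp12 and Lyz1 also hold TTGCNNAA on that strand. Cd68 holds TGANTCA at 2 places and TTGCNNAA once, and the single match in Clec7a is GGAANNGAA on the opposite strand.

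Array values are given for the 20 genes with the smallest p between the replicate numbers, a choice made after the values were seen because none passed the adjusted threshold. The arrays are always listed as HOXB4-ER 1 h after withdrawal, HOXB4-ER 4 h after withdrawal, HOXB4-ER with TMX, HOXB4const after withdrawal and HOXB4const with TMX. The ± beside a difference is the standard error from the limma fit to all probe sets. In that fit every one of these 20 genes had an adjusted p between 0.134 and 0.167, so none passed. The adjusted p named for a gene from here to Irf8 and Aif1 is instead that of the separate fit to the brighter probe sets. In the construct and treatment comparisons that follow, adjusted p is again over all probe sets.

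Of the 17 receptors and surface proteins, 10 had no overlap between the numbers and 10 of the 14 bright enough to be tested passed in the fit to the brighter probe sets, 2 of them (Cx3cr1 and Ms4a7) tested there only through replicate 1. Csf1r, the receptor for the macrophage growth factor M-CSF, read 11.13, 11.38, 11.32, 10.43 and 10.54 in replicate 1, against 6.80, 7.34, 7.02, 8.56 and 8.30 in replicate 2. All 5 arrays of replicate 1 lay above all 5 of replicate 2, with a difference of 3.36 ± 0.49 (limma adjusted p = 0.0253), and its 3 probe sets gave differences of 2.76 to 3.37. Cd14, the co-receptor for bacterial lipopolysaccharide, read 8.36, 9.15, 8.06, 8.47 and 9.04 in replicate 1 and 6.18, 5.06, 5.86, 6.57 and 6.68 in replicate 2, again without overlap (difference 2.54 ± 0.39, limma adjusted p = 0.0253). Both integrin alpha chains that mark myeloid cells were higher on every replicate 1 array. Itgam (CD11b) gave 8.04, 6.57, 7.26, 7.15 and 7.44 in replicate 1 and 4.67, 3.34, 4.14, 4.93 and 5.44 in replicate 2, a difference of 2.79 ± 0.31 (limma adjusted p = 0.0208). For Itgax (CD11c) the replicate 1 values were 8.34, 8.51, 8.29, 6.64 and 6.31, against 5.83, 5.52, 4.52, 1.06 and 4.85 in replicate 2. One replicate 2 array of Itgax, HOXB4const after withdrawal, stood far below the others, and the difference was 3.26 ± 0.61, or 2.67 with values below 4 set to 4.

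The C-type lectin receptors Clec7a (Dectin-1, for fungal beta-glucan) and Clec4n (Dectin-2, for fungal mannan) were among the most different. Clec7a read 9.63, 9.69, 9.96, 8.21 and 8.16 in replicate 1 and 5.22, 3.31, 4.36, 5.45 and 5.70 in replicate 2 (difference 4.33 ± 0.67, limma adjusted p = 0.0279). Clec4n read 9.31, 10.30, 10.03, 6.80 and 7.59 in replicate 1 and 4.48, 3.75, 3.47, 4.27 and 4.39 in replicate 2 (difference 4.74 ± 0.72, limma adjusted p = 0.0271). In replicate 1 both lectins were higher on each HOXB4-ER array than on either HOXB4const array. The MS4A membrane proteins differed in size of shift. Ms4a7, found on mature macrophages, gave 8.99, 9.54, 9.61, 7.78 and 8.23 in replicate 1, against 1.69, 2.18, 3.83, 4.44 and 1.42 in replicate 2, 4 of which lay below 4, so the difference of 6.12 ± 0.66 shrinks to 4.74 with the floor, and its 2 probe sets gave 2.95 to 6.12. Ms4a6c, found on monocytes, gave 7.79, 7.51, 8.36, 7.13 and 7.73 in replicate 1 and 6.14, 5.91, 6.42, 5.25 and 6.24 in replicate 2, a smaller difference of 1.71 ± 0.22 with the smallest adjusted p of these genes in the brighter fit (0.0201 in limma), while its other probe set differed by 0.37.

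Among the other receptors, Cx3cr1 (the fractalkine receptor) and Mrc1 (the mannose receptor) did not overlap either. Cx3cr1 ranged from 5.74 to 7.15 in replicate 1 and from 1.76 to 4.75 in replicate 2 (difference 2.98 ± 0.59, or 2.37 with values below 4 set to 4, since 3 of its replicate 2 values lie there), and Mrc1 from 6.77 to 8.03 and from 3.95 to 5.53 (difference 2.38 ± 0.45, limma adjusted p = 0.0389). Ccr2, the receptor by which monocytes leave the marrow, was higher in replicate 1 in all 5 groups but overlapped as a whole, at 9.31 ± 0.48 in replicate 1 and 8.26 ± 0.53 in replicate 2 (SD, n = 5 each). The scavenger receptors were dim. Msr1 averaged 4.88 ± 1.02 in replicate 1 and 4.16 ± 0.91 in replicate 2, and 1 of its 4 probe sets went the other way, the single exception among the 33 further probe sets of the genes measured more than once. Marco stayed below 4 on 4 of 5 replicate 1 arrays and on all 5 replicate 2 arrays. Cd36, which also takes up fatty acids, averaged 4.96 ± 1.23 in replicate 1 and 2.16 ± 1.57 in replicate 2, with all 5 replicate 2 arrays below 4. Trem2, a lipid-sensing receptor, averaged 4.72 ± 1.34 and 3.36 ± 0.88 in replicates 1 and 2. The Fc receptors for IgG differed least among the receptors: Fcgr1 averaged 5.51 ± 0.53 in replicate 1 and 5.12 ± 0.58 in replicate 2, and Fcgr3, a bright signal, 9.66 ± 0.33 and 9.32 ± 0.65.

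Both signalling adaptors, which pass on signals from Fc receptors, lectins and Trem2, were bright everywhere and separated the numbers by smaller steps. Fcer1g, the common Fc receptor gamma chain, read 11.57, 11.12, 11.08, 11.24 and 10.91 in replicate 1 and 9.40, 9.13, 9.15, 9.49 and 9.96 in replicate 2 (difference 1.76 ± 0.27, limma adjusted p = 0.024). Tyrobp (DAP12) ranged from 10.93 to 12.00 in replicate 1 and from 10.19 to 10.80 in replicate 2, a difference of 1.01 ± 0.21 (limma adjusted p = 0.0312). Fcer1g is also used by mast cells and basophils, whose genes Ms4a2 and Cpa3 read at least 8.67 and 11.45 on every array.

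Of the 10 lysosomal and antimicrobial genes, 9 had no overlap and 9 passed in the brighter fit (Gpnmb tested only through replicate 1), with a median difference of 2.71. Lyz2, the lysozyme of macrophages and granulocytes, read 13.07, 12.12, 12.42, 12.56 and 12.50 in replicate 1, against 9.06, 8.73, 8.71, 10.05 and 10.31 in replicate 2 (difference 3.16 ± 0.35, limma adjusted p = 0.022). Its neighbour Lyz1 ranged from 12.57 to 13.65 in replicate 1 and from 9.91 to 11.70 in replicate 2 (difference 2.29 ± 0.43); the 2 transcripts are similar, and hybridisation of each to the other's probe set was not tested. Cybb, the catalytic chain of the phagocyte NADPH oxidase, had the smallest p of all 41 genes. It read 9.42, 9.26, 9.21, 8.43 and 8.73 in replicate 1 and 3.72, 3.56, 4.58, 5.26 and 5.14 in replicate 2, a difference of 4.56 ± 0.48 (limma adjusted p = 0.0217), and its 3 probe sets gave 4.16 to 5.40. Mpeg1, the pore-forming protein perforin-2, read 10.80, 11.00, 10.91, 8.93 and 9.40 in replicate 1 and 4.04, 5.08, 5.47, 5.54 and 5.81 in replicate 2 (difference 5.02 ± 0.58, limma adjusted p = 0.0232). No replicate 2 value of Mpeg1 was below 4, so setting values below 4 to 4 leaves this difference, a fold of 32.5, unchanged. Its lowest value, 4.04, lies close to that floor.

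The endosomal glycoprotein Cd68 read 10.15, 9.80, 9.73, 9.41 and 9.11 in replicate 1, against 7.26, 7.69, 7.41, 7.40 and 7.87 in replicate 2 (difference 2.12 ± 0.30). The lysosomal membrane protein Gpnmb read 8.51, 8.63, 8.4, 6.89 and 6.92 in replicate 1, against 2.82, 1.34, 3.62, 1.42 and 4.85 in replicate 2; 4 of the 5 replicate 2 values were below 4, and the difference of 5.06 ± 0.74 becomes 3.70 with the floor. The other probe set of Gpnmb differed by 0.61. The cathepsins did not behave as one family. Ctss, the cysteine protease that trims the MHC class II invariant chain, gave 11.60, 11.69, 11.60, 10.31 and 10.51 in replicate 1 and 7.34, 7.93, 7.80, 8.78 and 8.21 in replicate 2 (difference 3.13 ± 0.48, limma adjusted p = 0.0265). Ctsb, a cysteine protease found in most cells, gave 11.46, 11.41, 11.31, 10.83 and 10.94 in replicate 1 and 9.53, 9.25, 9.43, 9.44 and 9.84 in replicate 2 (difference 1.69 ± 0.26, limma adjusted p = 0.024). Ctsd, the aspartic protease, averaged 10.13 ± 0.32 in replicate 1 and 8.75 ± 0.39 in replicate 2 without overlap. Ctsl was the one gene of the 41 that was not higher in replicate 1: it averaged 8.08 ± 0.62 in replicate 1 and 8.16 ± 0.07 in replicate 2, with all 5 replicate 2 values inside the range of replicate 1.

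The 10 secreted proteins measured were the least uniform group, with 4 free of overlap. Mmp12, the macrophage elastase, read 7.41, 7.96, 7.31, 7.95 and 7.36 in replicate 1, against 3.17, -0.66, 0.22, 1.61 and 2.44 in replicate 2. Every replicate 2 value lay below 4, so 6.24 ± 0.68 is not a measured size, and with the floor the difference is 3.60 (12.1-fold). Lgals3, the lectin galectin-3, read 8.83, 9.97, 9.14, 7.17 and 7.41 in replicate 1 and 2.87, 3.55, 2.59, 4.54 and 4.21 in replicate 2 (difference 4.96 ± 0.73, or 4.36 with the floor). Lpl, the lipoprotein lipase that macrophages release, read 10.87, 11.67, 11.17, 9.70 and 10.09 in replicate 1 and 6.68, 6.33, 6.42, 8.29 and 7.84 in replicate 2 (difference 3.59 ± 0.66, limma adjusted p = 0.0382), with no value near the floor. The chemokines Ccl6 and Ccl9, which mouse myeloid cells secrete, were read from their brightest probe sets: Ccl6 averaged 5.34 ± 0.49 in replicate 1 and 3.81 ± 0.57 in replicate 2 without overlap, while Ccl9, bright on every array, averaged 12.07 ± 0.22 and 11.79 ± 0.13. Centring each array on its median turned the small Ccl9 difference of 0.28 ± 0.22 to -0.04. The other probe set of Ccl9 differed by 2.92, so its 2 probe sets disagree on the size. The complement chains that tissue macrophages make were at or near the floor: C1qa and C1qc lay below 4 on all 10 arrays and C1qb averaged 4.11 ± 0.91 in replicate 1 and 3.42 ± 1.39 in replicate 2. Apoe, the lipid carrier, averaged 4.67 ± 0.79 in replicate 1 and 2.00 ± 2.24 in replicate 2, with overlap.

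Irf8, a factor needed for monocyte and dendritic cell progenitors, read 8.51, 9.52, 8.10, 6.98 and 7.05 in replicate 1 and 4.74, 5.41, 4.62, 4.69 and 5.34 in replicate 2, without overlap (difference 3.07 ± 0.43, limma adjusted p = 0.024). Aif1 (Iba1), an actin-binding protein of macrophages, averaged 5.79 ± 0.26 in replicate 1 and 3.37 ± 2.43 in replicate 2. Within replicate 2 its HOXB4-ER arrays read 3.60, 1.18 and 0.62 and its HOXB4const arrays 5.47 and 5.98. Over all genes measured with several probe sets, 32 of the 33 further probe sets moved in the direction of the brightest one.

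**Figure D2:**
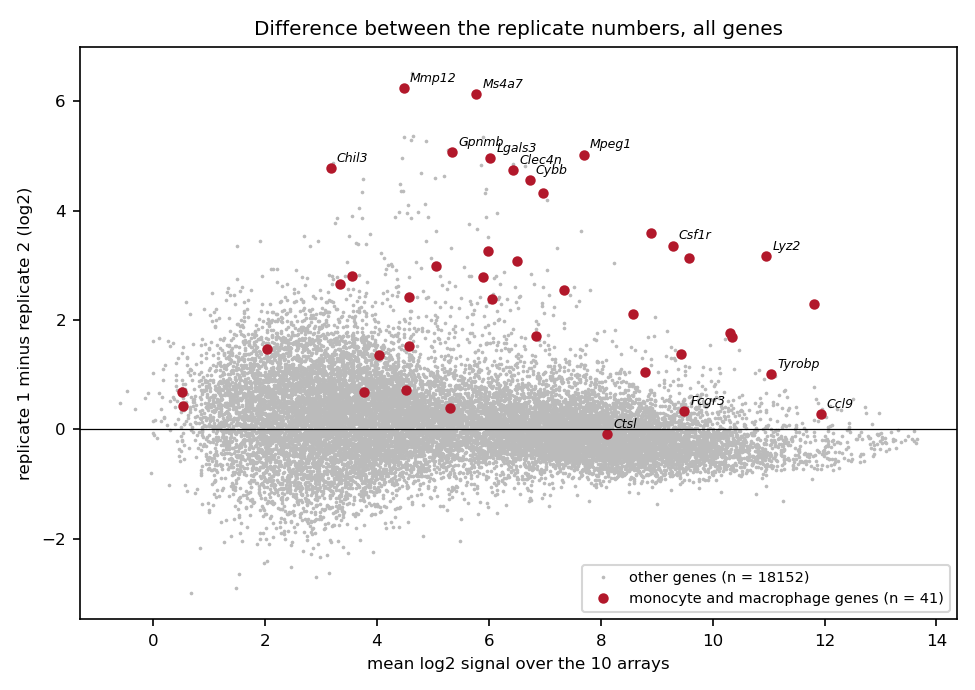
The y axis is replicate 1 minus replicate 2 on the log2 scale and the x axis the mean log2 signal over the 10 arrays; each grey point is one of the other genes and each red point one of the 41. Of the 41 red points 40 lie above 0, and Ctsl, Ccl9 and Fcgr3 lie near 0.

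RNA end bias moved with the replicate numbers too. The 3′ minus 5′ signal of the Gapdh control probe sets, which grows as RNA or its copies become shorter, averaged 1.10 ± 0.26 in replicate 1 and 2.72 ± 1.08 in replicate 2 (SD, n = 5 each, exact permutation test, two-sided, p = 0.00794, the smallest that 5 against 5 arrays allow). For Actb the values were 1.80 ± 0.30 in replicate 1 and 2.96 ± 0.63 in replicate 2 (exact permutation test, p = 0.0159). Both tests permuted the arrays without the pairing by group. They treat the arrays as independent, although those of 1 construct and number may share a culture. The 2 pairs with the closest Gapdh values were the HOXB4-ER pairs after 1 h: without TMX they read 1.01 in replicate 1 and 1.48 in replicate 2, and with TMX 1.04 and 1.74. The median of the 41 genes differed by 2.51 in the pair without TMX and by 2.88 in the pair with TMX, and on those 4 arrays alone 35 of the 41 genes had no overlap, against 22.1% of all genes. On all HOXB4-ER arrays 31 of the 41 had none (10.9% of all genes), and on the HOXB4const arrays 29 (18.7%). In the pair with the widest Gapdh gap, HOXB4const without TMX (1.28 in replicate 1 and 3.98 in replicate 2), the genes' median differed by 1.87. In the other pairs, HOXB4-ER without TMX at 4 h (1.42 in replicate 1 and 3.47 in replicate 2) and HOXB4const with TMX (0.74 and 2.93), it differed by 2.99 and 1.48. End bias was higher in replicate 2 in every pair, so it changes together with the replicate number. Its part in the difference of these genes was not tested.

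**Figure D3:**
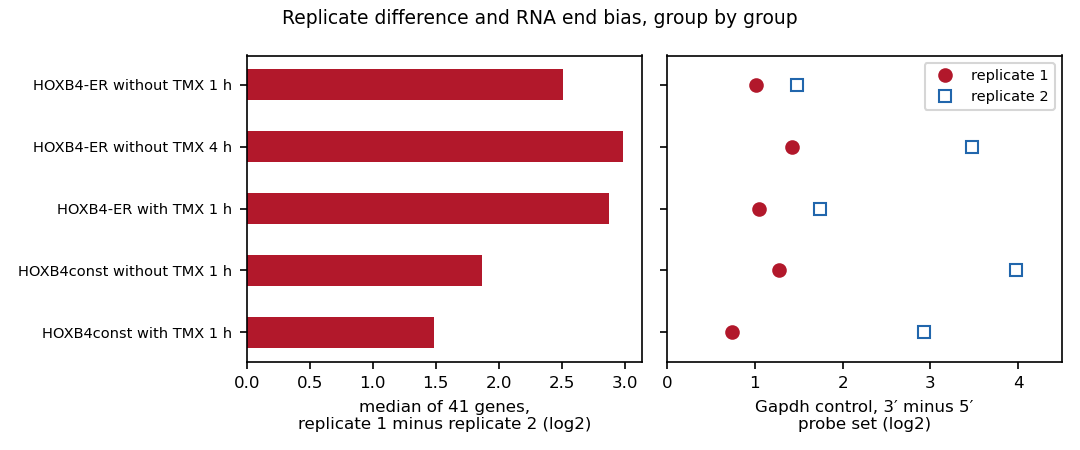
Left, the median over the 41 genes of replicate 1 minus replicate 2 (log2) in each group's pair of arrays; right, the 3′ minus 5′ log2 signal of the Gapdh controls on each array, red circles for replicate 1 and blue squares for replicate 2. The medians lie between 1.48 and 2.99, and the 2 HOXB4-ER pairs at 1 h, with the closest Gapdh values, have medians of 2.51 and 2.88. The part of end bias in the medians was not tested.

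Markers of other cells were read in the same way. Over all genes, 3.11% had every replicate 1 array above, and 875 of 18193 had every one below. In the brighter fit 3.37% of probe sets were called higher in replicate 1. Of 13 neutrophil genes, 12 were higher in replicate 1, by a median of 1.67, and 3 had no overlap (Mmp8, S100a8 and Lcn2). Of the 10 neutrophil genes tested in the brighter fit 2 passed, and 1 of these, S100a8, was bright enough only through replicate 1. S100a8 and S100a9 differed by 5.34 and 5.34 and Ltf by 3.44, with replicate 2 means below 4 for each. The bright granule genes Mpo, Prtn3 and Ctsg differed by 0.37, 0.02 and -0.31. The summed signal of the list, to which bright genes contribute most, was 7830 to 21800 in replicate 1 and 8300 to 18200 in replicate 2. Of 12 dendritic and antigen-presentation genes, 11 were higher in replicate 1, by a median of 1.66 and with Ccr7, Cd74 and Flt3 free of overlap, and the summed signal was 889 to 5630 in replicate 1 and 459 to 673 in replicate 2. Of 11 mast cell and basophil genes 7 were higher in replicate 1, with a median of 1.06, and 3 of the 10 tested passed in the brighter fit, Mcpt2 (difference 2.35) among them. Mcpt1 and Mcpt8 were above and Gata2 below on every replicate 1 array. Of 13 stem and progenitor genes 2 were higher in replicate 1, Flt3 and Cd34, and the transcription factors Hlf and Gata2 were lower on every replicate 1 array (differences of -0.79 and -0.56). Of 11 proliferation genes 2 were higher, and Bub1, Ccna2 and Top2a were lower on every replicate 1 array (differences of -0.86, -0.52 and -0.58). Erythroid (4 of 9 higher), megakaryocyte (4 of 8), lymphoid (10 of 13) and stromal genes (4 of 10) had 1 gene without overlap in all, Cd79a, which averaged 3.81 in replicate 1 and 1.85 in replicate 2. The part of these cells in the result was not tested.

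A further list of 94 monocyte and macrophage genes outside the 42, of which 83 were measured, gave 71 higher in replicate 1, a median difference of 0.99 and 36 without overlap, against 3.11% of all genes. None of the 83 passed limma's adjusted threshold over all probe sets, and 26 of the 70 that were bright enough passed in the brighter fit, against 3.37% of those probe sets; 3 of the 26 were bright enough only through replicate 1. The 12 with the smallest p were Tlr7, Il1b, Ccl3, Tlr2, Sirpa, Psap, Tnf, Ccl4, Clec5a, Irf5, Adgre1 and Ncf1, and each of them was free of overlap. Tlr7 read 0.26 to 2.73 in replicate 2, below 4 throughout, and was too dim for the brighter fit. In replicate 2, 2 values of Il1b and 1 each of Tnf and Irf5 also lay below 4. Adgre1, the classical mouse macrophage antigen, averaged 8.31 ± 0.48 against 5.85 ± 0.49 in replicates 1 and 2 (SD, n = 5 each). The inflammatory cytokine Il1b averaged 7.10 ± 0.73 against 4.29 ± 0.56, Tnf 7.48 ± 0.35 against 4.72 ± 0.95 and the chemokine Ccl3 8.87 ± 0.54 against 5.56 ± 0.67, each in replicates 1 and 2. The receptor Sirpa, which reads the don't-eat-me protein Cd47, averaged 9.07 ± 0.57 against 6.53 ± 0.23. Spi1, which encodes PU.1, read 8.36 to 9.42 in replicate 1 and 7.48 to 8.22 in replicate 2. This list was written with earlier results of these arrays known.

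The constructs entered the same contrast with opposite signs in the 2 numbers, a comparison added after the values were seen. Each construct was fitted with a single replicate difference, for HOXB4-ER over its 1 h and 4 h groups. The construct differences within a number come from that fit, so the 4 h arrays enter them and small ones can change sign. Mmp12 was fitted at 0.20 in replicate 1. Its arrays at 1 h there read 7.41 and 7.31 in HOXB4-ER and 7.95 and 7.36 in HOXB4const. In replicate 1, 29 of the 41 genes were higher in HOXB4-ER in this fit, with a median of 0.60, against -0.07 over all genes. In replicate 2, 7 of the 41 were higher in HOXB4-ER, and the median was -0.78, against -0.13 over all genes. The replicate difference was larger in HOXB4-ER for 34 of the 41 genes, with a median of 1.02, against 52.9% of all genes. None of the 41 and none of the 45037 probe sets (0.0%) passed limma's adjusted threshold for that difference of differences, while 14 of the 41 and 2253 probe sets had an unadjusted p under 0.05. With each array centred on its median, 35 of the 41 genes were higher in HOXB4-ER in replicate 1 (median 0.96) and 15 in replicate 2 (median -0.38), and quantile normalization gave medians of 0.50 and -0.36. With a spread that follows the level, 5 of the 41 passed for the difference of differences (0.0622% of all probe sets were called in that direction), 1 was called higher in HOXB4-ER in replicate 1 (0.0755%) and 2 lower in replicate 2 (0.091%). For 9 of the 41 genes every HOXB4-ER array lay above both HOXB4const arrays in replicate 1 and below both in replicate 2, against 1.34% of all genes, and the reverse held for 0. Separately, the first held for 18 of the 41 (10.5% of all genes) and the second for 20 (18.0%). Among the 9, Chil3 and Cd36 had every replicate 2 value below 4, so their order in replicate 2 carries little information. The counts and shares include such dim values.

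Those 9 genes, chosen by their values, were Csf1r, Cd36, Clec7a, Ctss, Cybb, Mpeg1, Lgals3, Lpl and Chil3. Chil3 (Ym1), a chitinase-like protein secreted by myeloid cells, was the most extreme, at 7.81 ± 0.40 (SD, n = 3) in HOXB4-ER and 2.19 ± 0.90 (n = 2) in HOXB4const arrays of replicate 1, and -0.54 ± 0.57 and 2.77 ± 1.38 in those of replicate 2. It was thus well above the floor on the HOXB4-ER arrays of replicate 1 alone. HOXB4-ER minus HOXB4const was 5.67 ± 0.84 in replicate 1 and -3.26 ± 0.84 in replicate 2, where all values lay below 4 and have no order. With values below 4 set to 4, the difference between the replicate numbers in this construct difference is 3.81 in place of 8.93. Its near-identical relative Chil4 shares 1 probe set with it that was not used. For Lgals3 the levels were 9.31 ± 0.59 (SD, n = 3) in HOXB4-ER and 7.29 ± 0.17 (n = 2) in HOXB4const arrays of replicate 1, and 3.0 ± 0.49 and 4.37 ± 0.23 in those of replicate 2. The construct difference of Lgals3 was 1.72 ± 0.38 in replicate 1 and -1.67 ± 0.38 in replicate 2. Its HOXB4-ER values in replicate 2 (2.87, 3.55 and 2.59) all lay below 4, so -1.67 is not a measured size. With values below 4 set to 4, the difference between the numbers is 2.39 in place of 3.39. Lpl gave 1.27 ± 0.46 in replicate 1 and -1.66 ± 0.46 in replicate 2, and Csf1r 0.70 ± 0.35 and -1.47 ± 0.35, with no array of either gene below 4.

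Other genes kept 1 sign, and no construct difference of the 41 genes passed within a number (smallest limma adjusted p 0.663 in replicate 1 and 0.606 in replicate 2). Tyrobp and Ms4a6c were higher in HOXB4-ER in both numbers, Tyrobp by 0.80 ± 0.34 in replicate 1 and 0.57 ± 0.34 in replicate 2. Itgax was higher in HOXB4-ER too on average, by 1.82 ± 1.01 and 2.24 ± 1.01 in replicates 1 and 2. Its replicate 2 difference draws on 1 HOXB4const array at 1.06, below the floor. With TMX, Itgax read 4.52 in HOXB4-ER and 4.85 in HOXB4const in replicate 2. Msr1 and Fcgr3 were lower in HOXB4-ER in both, Fcgr3 with differences of -0.54 ± 0.41 in replicate 1 and -1.11 ± 0.41 in replicate 2. Aif1 hardly differed in replicate 1 (-0.27 ± 0.81) and stood at 1.80 ± 1.58 in HOXB4-ER and 5.72 ± 0.36 in HOXB4const arrays of replicate 2. The neutrophil gene S100a8 followed Chil3 in replicate 1, at 10.59 in HOXB4-ER and 5.52 in HOXB4const arrays of replicate 1, and 3.40 and 2.96 in those of replicate 2 (means). The MHC class II chain H2-Aa, of antigen-presenting cells, averaged 10.23 in HOXB4-ER and 5.03 in HOXB4const arrays of replicate 1, and 3.63 and 3.91 in those of replicate 2, and Cd74, the class II invariant chain, 10.93 in HOXB4-ER and 7.25 in HOXB4const arrays of replicate 1, and 5.78 and 5.91 in those of replicate 2. S100a8, H2-Aa and Cd74 do not stand for their whole lists. In replicate 1 the dim dendritic genes Xcr1 (3.04 in HOXB4-ER and 4.6 in HOXB4const), Cd209a (2.39 and 4.6) and Zbtb46 (3.58 and 3.86) went the other way. So did the neutrophil gene Cxcr2 (2.50 and 3.15). Flt3 (7.67 and 7.59), Mmp8 (7.10 and 7.05) and Camp (3.94 and 3.96) hardly differed. The part of such cells in the construct difference was not tested.

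**Figure D4:**
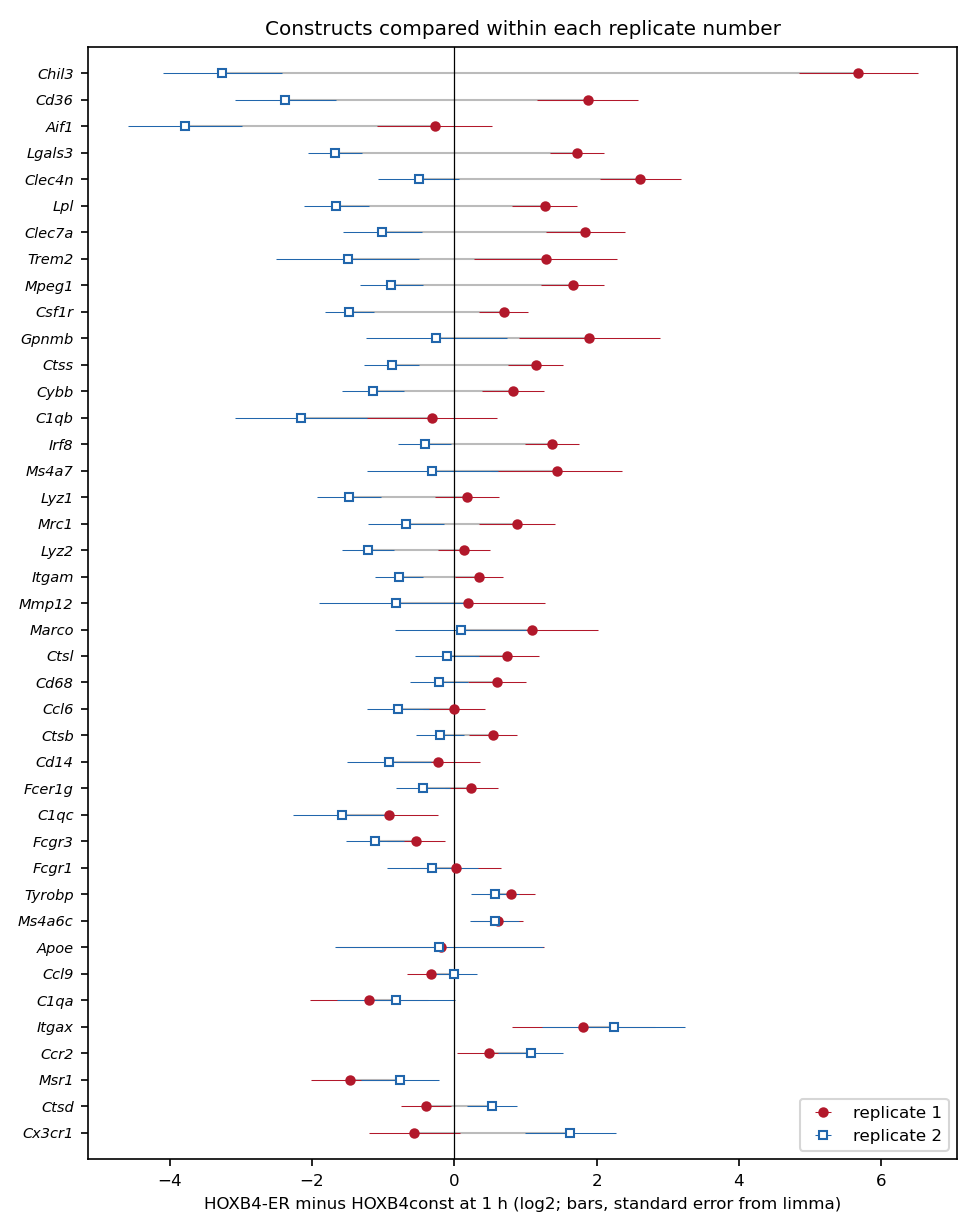
Each row is one of the 41 genes, ordered by how much its construct difference changed between the numbers. The x axis is the fitted HOXB4-ER minus HOXB4const at 1 h (log2), with limma's standard errors as bars. The HOXB4-ER arrays at 4 h enter that fit. Red circles are replicate 1 and blue squares replicate 2; the red circles lie to the right of the blue squares for 34 of the 41 genes.

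TMX withdrawal takes HOXB4-ER out of the nucleus, and the study used it to look for genes that respond to HOXB4; the 1 h comparison asks which of these genes follow within that time. After 1 h without TMX, 0 of the 41 genes and 0 of the 45037 probe sets (0.0%) passed limma's adjusted threshold, and 0 of the 41 had an unadjusted p under 0.05, against 2145 probe sets. The median of the 41 differences, without TMX minus with TMX, was 0.14, with 24 genes higher, against 0.07 over all genes. In the pair of replicate 1 the median was 0.10 and in that of replicate 2 it was 0.15; 17 genes were higher without TMX in both pairs and 8 lower in both, where 32.1% and 22.6% of all genes were. The 4 genes of smallest p were Marco, C1qc, Ctsl and Fcgr1. Marco read 4.69 and 2.77 after withdrawal, against 2.73 and -0.17 with TMX (replicates 1 and 2, difference 2.45 ± 1.23), below 4 on all of these arrays but 1. With the replicate number as a block its unadjusted p was 0.0404, the only one under 0.05 among the 41, and its adjusted p in limma 0.868. Fcgr1 read 6.02 and 5.23 after withdrawal, against 5.52 and 4.66 with TMX, Ctsl 7.71 and 8.22 after withdrawal, against 8.72 and 8.16 with TMX, and C1qc lay below 4 throughout.

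Since the replicate numbers differ so much in these genes, the block sets the precision. At or above the median level, the 95% interval of a withdrawal difference was the estimate plus or minus a median of 1.68 on the log2 scale with the block (0.84 to 3.36 over 33 genes), and 4.04 without it. Smaller responses of single genes were not detectable with 2 arrays a group. For Csf1r, without TMX minus with TMX at 1 h was -0.21 ± 0.78 with the block, for Lyz2 0.50 ± 0.56, and for Irf8 0.26 ± 0.68.

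At 4 h without TMX, 0 of the 41 genes and 0 of the 45037 probe sets (0.0%) passed against HOXB4-ER with TMX at 1 h in limma; 0 of the 41 and 1509 probe sets had an unadjusted p under 0.05. The median difference was 0.04, with 23 genes higher, against 0.02 over all genes. Apoe, Cd36, Ccr2 and Ms4a6c had the smallest p. Ccr2 read 9.0 and 8.46 at 4 h without TMX, against 9.71 and 8.81 with TMX, and Ms4a6c 7.51 and 5.91, against 8.36 and 6.42. Both genes read lower at 4 h in each pair, with differences of -0.53 ± 0.79 for Ccr2 and -0.68 ± 1.08 for Ms4a6c. With the replicate block the standard errors were 0.48 and 0.34 (unadjusted p = 0.313 and 0.0961), and neither passed the limma test over all probe sets. Apoe differed through 1 array, at -1.02 on the 4 h replicate 2 array and 4.5 on its partner with TMX, and Cd36 likewise through the replicate 2 array with TMX at -0.27.

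Between 4 h and 1 h without TMX, 0 of the 41 genes and 0 of the 45037 probe sets (0.0%) passed in limma, with 0 and 2558 at an unadjusted p under 0.05. The median of 4 h minus 1 h was -0.16, with 16 genes higher, against -0.06 over all genes. Marco, Fcgr1, C1qc and Apoe had the smallest p: Marco read 1.73 and 0.93 at 4 h and 4.69 and 2.77 at 1 h, and Fcgr1 4.82 and 4.90 at 4 h and 6.02 and 5.23 at 1 h. With the replicate block Itgam came first, at 6.57 and 3.34 at 4 h and 8.04 and 4.67 at 1 h, a difference of -1.40 ± 0.49 (unadjusted p = 0.0305, limma adjusted p = 0.663). Itgam was lower at 4 h in both numbers while staying far apart between them.

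In HOXB4const cells, where TMX should not move HOXB4, withdrawal for 1 h is the control for TMX itself. There 0 of the 41 genes and 0 of the 45037 probe sets (0.0%) passed in limma, with 1 and 1956 at an unadjusted p under 0.05. The median was -0.10, with 16 genes higher, against 0.02 over all genes. In both pairs 4 genes were higher and 15 lower, where 21.5% and 20.1% of all genes were. Msr1 had the smallest p and read 6.53 and 5.66 without TMX, against 4.91 and 3.49 with TMX (difference 1.89 ± 0.71, unadjusted p = 0.0318, limma adjusted p = 1). C1qc, C1qa and Ccl6 followed; Ccl6 read 5.94 and 4.62 without TMX, against 4.67 and 3.88 with TMX, and both C1q chains stayed below 4.

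The response to withdrawal was then set between the constructs, HOXB4-ER minus HOXB4const, where 0 of the 41 genes and 0 of the 45037 probe sets (0.0%) passed in limma, with 0 and 1698 at an unadjusted p under 0.05. The median was 0.37 with 25 genes higher, against 0.02 over all genes. Msr1, Marco, C1qb and Fcgr1 had the smallest p, at -2.0 ± 1.01, 1.68 ± 1.74, 1.42 ± 1.5 and 0.80 ± 0.91. Msr1 leads here by its values in HOXB4const cells, since in HOXB4-ER it read 4.4 and 3.55 after withdrawal, against 3.76 and 4.41 with TMX.

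Over both treatments at 1 h, HOXB4-ER minus HOXB4const gave 0 of the 41 genes and 0 of the 45037 probe sets (0.0%) past limma's threshold, with 1 and 3387 at an unadjusted p under 0.05, and a median of -0.10 with 20 genes higher, against -0.09 over all genes. This mean over the numbers combines the positive differences of replicate 1 with the negative ones of replicate 2 described above. C1qc, Fcgr3, Msr1 and C1qa had the smallest p. Fcgr3 read 9.37, 8.61, 9.77 and 8.78 on the HOXB4-ER arrays at 1 h, against 9.86, 9.77, 10.05 and 10.14 on the HOXB4const arrays, and the highest HOXB4-ER value equalled the lowest HOXB4const value to 2 decimals (difference -0.82 ± 0.36, limma adjusted p = 0.669). With the replicate block Itgax and Tyrobp came first, both higher in HOXB4-ER, at 2.03 ± 0.68 and 0.68 ± 0.24 (limma adjusted p = 0.523 and 0.542). The Itgax difference again includes the HOXB4const array at 1.06.

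These comparisons share arrays: HOXB4-ER with TMX stands in both withdrawal comparisons of that construct, and HOXB4-ER without TMX at 1 h in all comparisons but the HOXB4const one and that of 4 h with TMX. Centring each array on its median gave a 1 h median over all probe sets of -0.27 in place of 0.12 in HOXB4-ER and of -0.22 in place of 0.09 in HOXB4const. The median of the 41 genes then became -0.24 in HOXB4-ER and -0.41 in HOXB4const, 0.25 for 4 h minus 1 h and 0.28 for HOXB4-ER minus HOXB4const, so the direction of 3 of these small medians depends on the scaling. The median shift between the replicate numbers was 2.10 under the same centring.

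**Figure D5:**
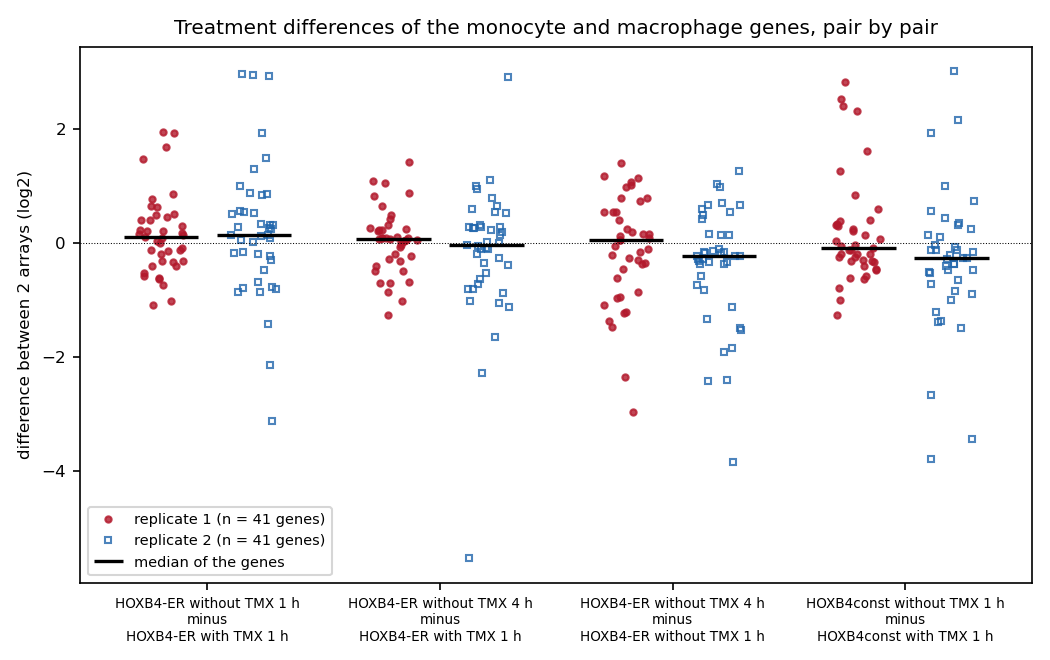
For each of 4 treatment comparisons, named below the x axis, the y axis gives the log2 difference between 2 arrays of one replicate number for each of the 41 genes, red circles for replicate 1 and blue squares for replicate 2, with the median as a bar. The 8 medians lie between -0.26 and 0.15.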

How the data were processed

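Polyadenylated RNA was amplified linearly with a T7 promoter and hybridised to Affymetrix whole-genome mouse arrays, 1 per sample. The deposited values are log2 signals per probe set. Of the tools in the submitters' processing notes, GCOS and RMA, it is not stated which made these values; on the linear scale every array has the same trimmed mean, as GCOS scaling leaves it. Depth does not apply to arrays, and their number (2 a group) limits the precision.

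Of 45101 probe sets, 64 controls were left out. Genes were named through the platform annotation: 34945 probe sets had 1 symbol, 932 several and 9160 none listed here. A gene was read from its brightest probe set. limma 3.58.1 in R 4.3.3 (lmFit, eBayes, Benjamini-Hochberg over all 45037 probe sets, threshold 0.05) fitted group means for the treatments, and group plus replicate number for the replicate comparison; the construct by replicate fit was added after the values were seen. Same-numbered arrays deviated together in all 10 pairs of groups, so the numbers pair the samples, and fits with the number as a block were run for every treatment comparison. Genes named per comparison were the 20 (replicates) or 4 (treatments) of smallest p. The gene lists, motifs and named genes were chosen with earlier results of these data known. Alternatives were other normalizations, filters, a floor at 4, probe set means, a spread that follows the level, subsets of arrays and each array left out.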

Additional observations from a re-analysis of the deposited data

Results flagged for a closer look

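For 9 genes every HOXB4-ER array lay above both HOXB4const arrays in replicate 1 and below both in replicate 2. The difference between the 2 replicate numbers in HOXB4-ER minus HOXB4const, with limma's standard error, was 8.93 ± 1.13 for Chil3, the chitinase-like protein, and 4.25 ± 0.95 for Cd36, a scavenger receptor. For both genes every replicate 2 value and both HOXB4const values of replicate 1 lay below 4, and with values below 4 set to 4 the sizes are 3.81 for Chil3 and 1.85 for Cd36. It was 3.39 ± 0.51 for galectin-3 (Lgals3), or 2.39 with the same floor, and 2.93 ± 0.61 for lipoprotein lipase (Lpl). The lectin Clec7a gave 2.85 ± 0.74, or 2.62 with the floor, and the pore-forming Mpeg1 2.55 ± 0.59. For the growth factor receptor Csf1r it was 2.17 ± 0.47, for the protease Ctss 2.02 ± 0.53 and for the oxidase chain Cybb 1.97 ± 0.59, or 1.73 with the floor. The difference was tested as an interaction in limma, and none of the 9 passed (p adjusted over all probe sets, 0.993 to 1.00 among the 41 genes). The arrays behind each sign are 3 against 2, and those of 1 construct and number may share a culture.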

How the results depend on the processing

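Between replicates 1 and 2, 0 of the 41 genes passed as reported. Among probe sets at or above the median level 26 passed, 6 of them bright enough only through replicate 1. With values below 4 set to 4, 9 passed, with a spread that follows the level 27, and without group means 22. The shares of the probe sets tested were, in the same order, 3.37%, 0.671%, 4.13% and 0.742%. The median difference was 1.63 on HOXB4const arrays alone and 2.07 to 2.61 with single arrays left out. On HOXB4const arrays alone Trem2 (-0.31), Fcgr3 (-0.002), C1qb (-0.42) and Chil3 (-0.58) turned, and Ccl9 turned to -0.037 with each array centred on its median. Ctsl turned to 0.26 on HOXB4-ER arrays and, with single arrays left out, Ctsl ran from -0.28 to 0.089 and C1qb from -0.019 to 1.11. With a spread that follows the level, 5 genes passed for the construct by replicate difference (0.0622% of all probe sets were called in that direction), and 1 and 2 for HOXB4-ER minus HOXB4const within replicate 1 (0.0755% higher) and replicate 2 (0.091% lower).

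For treatments, the replicate block changed no call: 0 of the 41 genes passed in each of the 6 comparisons with or without it. With single arrays left out the medians ran from -1.09 to 1.91 (1 h HOXB4-ER), -1.40 to 1.48 (4 h against TMX), -1.58 to 1.10 (4 h minus 1 h), -0.96 to 0.85 (HOXB4const), -0.88 to 0.77 (HOXB4-ER minus HOXB4const) and -1.01 to 1.82 (interaction) without the block. With it they ran from -0.04 to 0.47, -0.41 to 0.24, -0.47 to 0.13, -0.70 to 0.51, -0.35 to 0.35 and -0.28 to 0.94 in the same order. The construct by replicate median ran from 0.68 to 1.52, and HOXB4-ER minus HOXB4const from 0.20 to 0.69 within replicate 1 and from -0.94 to -0.52 within replicate 2. Single genes that turned were, at 4 h against TMX, Cd36 (-0.001 by probe set means, -1.42 to 4.57 without 1 array, -0.42 to 3.57 with the block) and Ms4a6c (-1.65 to 0.29 without 1 array). Others were Apoe for 4 h minus 1 h (-4.31 to 0.68) and C1qa (-0.36 to 2.17, or -0.25 to 2.06 with the block) without 1 array, and Ccl6 (-0.37 by probe set means) in HOXB4const, and C1qb (-0.33 to 3.16, or -0.34 to 3.17 with the block) and Fcgr1 (-0.020 to 1.62 with the block) in the interaction without 1 array. The cause was not tested. Signal over background limits the 8 genes below the median level and every replicate 2 value below 4.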
